A study of Mus musculus with 15 samples.

Results

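The microRNAs (miRNAs) of αTC1-6 cells were compared after 24 h with and without inflammatory cytokines. αTC1-6 is a clonal mouse cell line from a glucagonoma, a tumour of the glucagon-producing alpha cells of the pancreatic islet, and it derives from mice that carried the SV40 large T antigen under a preproglucagon promoter, so both groups share this transgene. The cells stand for 1 clone and not for the mixed cells of an islet. The treated group received IL1b at 50 IU/ml, IFNg at 1000 IU/ml and TNFa at 1000 IU/ml for 24 h, and the control group was grown without treatment. All miRNA assays of the 6 samples labelled αTC1-6 24 h, 3 treated and 3 untreated, were taken, out of 15 samples in the series. The methods of the study describe the replicates as independent biological ones and the replicate numbers of the 2 groups are treated as pairs.

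Real-time PCR was run on TaqMan low density arrays, which spread the assays over cards A and B. The readout is the threshold cycle (Ct). More miRNA brings an earlier Ct, and 1 cycle is a log2 unit. Subtracting the Ct of miR-26a, an assay of card A, gives the ΔCt of the normalized table, in which undetermined wells stand at a Ct of 40. Differences are given below as log2 values of cytokines minus control, positive where the treated cells held more. Of 583 miRNA assays beside miR-26a, 445 had a Ct in at least 3 of the 6 samples and were tested, 254 on card A and 191 on card B. Another 100 had no Ct in any of the 6 samples. In the normalized table, the controls had a Ct for 235, 257 and 247 miRNAs of card A. The treated cells had 213, 248 and 241, fewer in each sample than in its own control, though the groups overlapped. On card B the number lay between 174 and 188. An exact permutation test without the pairing (two-sided, smallest possible p = 0.1) gave p = 0.5 for card A and p = 1 for card B. On card A the non-normalized table had a Ct for 307, 329 and 319 miRNAs in the controls. Its treated samples had 315, 334 and 324, more in each than in its own control. The Ct of miR-26a was 18.98, 17.55 and 17.69 in the controls and 18.88, 17.96 and 17.96 in the treated cells. It therefore differed more between replicate numbers than between treatments. The 3 samples of a group limit the precision of every value.

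IL1b, TNFa and IFNg are the cytokines that infiltrating immune cells release in the inflamed islet. IL1b and TNFa act through receptors that activate the transcription factor NF-kB. MiR-146a and miR-155 are transcribed in response to NF-kB in many cell types, and miR-146a in turn represses the signalling adaptors Irak1 and Traf6. A miRNA recognises its targets mainly through its seed, bases 2 to 8 of the mature strand.

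The mature sequences of the miRNAs on which the comparison turns are given first, 5′ to 3′, with the seed in capitals, as RefSeq holds them for the mouse assembly GRCm38.p6. Among the printed ones linked to NF-kB or to cytokines in islets, miR-146a and miR-146b share a seed. The others printed with them have seeds of their own.
miR-146a-5p: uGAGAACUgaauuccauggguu
miR-146b-5p: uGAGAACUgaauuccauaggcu
miR-155-5p: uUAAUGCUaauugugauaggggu
miR-125b-5p: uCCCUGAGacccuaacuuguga
miR-203-3p: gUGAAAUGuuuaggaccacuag
miR-34a-5p: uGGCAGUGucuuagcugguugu
The Gnas locus on chromosome 2 gives the next 3, of which the first pair are both arms of the Mir296 hairpin.
miR-296-3p: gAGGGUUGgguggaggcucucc
miR-296-5p: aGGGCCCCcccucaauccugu
miR-298-5p: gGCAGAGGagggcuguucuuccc
The last set comes from the imprinted Dlk1-Dio3 region of chromosome 12, many of whose miRNAs were lower in the treated samples. MiR-379-3p and miR-411-3p, listed as rat miR-379* and mouse miR-411* on the cards, share a seed and 20 of 22 bases, and miR-380-3p shares 16 of 22 with miR-379-3p. The mouse sequence is shown for the rat assay.
miR-380-3p: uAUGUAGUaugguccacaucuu
miR-379-3p: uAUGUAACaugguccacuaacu
miR-411-3p: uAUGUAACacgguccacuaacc
miR-370-3p: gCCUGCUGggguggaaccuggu
miR-134-5p: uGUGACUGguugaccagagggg
miR-544-3p: aUUCUGCAuuuuuagcaagcuc

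Most miRNAs moved little. Of the 445 tested, 310 had a log2 difference within 1 unit of 0, and the median over all was -0.15. Among the 329 with a Ct in all 6 samples, 15 differed by 2 units or more, against 52 of the others, in which undetermined wells enter the means. With limma and Benjamini-Hochberg adjustment within each card, 1 miRNA (0.225% of those tested) had an adjusted p-value under 0.05, namely miR-380-3p, and it was lower in treated cells. At an unadjusted p-value under 0.05, 15 were higher (3.37%) and 6 lower (1.35%). Fitted with the replicate number as a block, which uses the pairing of the samples, 0 of 443 miRNAs passed after adjustment, and 24 were higher (5.42%) and 27 lower (6.09%) at an unadjusted p-value under 0.05. All 3 treated samples lay above all 3 controls for 22 of 391 miRNAs with a value in every sample (5.63%), and below them for 25 (6.39%). In all 3 pairs, the treated sample was above its control for 58 (14.8%) and below it for 95 (24.3%).

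**Figure D1:**
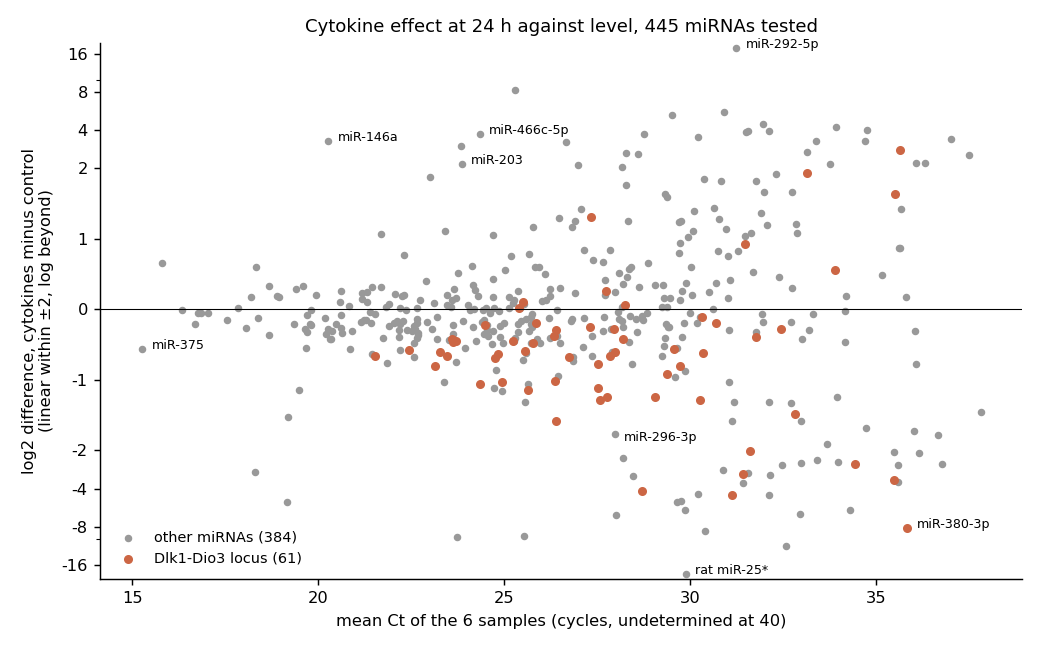
Log2 difference of cytokines minus control (y axis, linear within 2 units of 0 and logarithmic beyond) against the mean Ct of the 6 samples (x axis, cycles, undetermined wells at 40) for the 445 miRNAs tested, with the 61 of the Dlk1-Dio3 list in orange and the 384 others in grey. Differences spread more at high Ct, miR-146a stands out among miRNAs with a Ct near 20, and 51 of the 61 Dlk1-Dio3 points lie below 0.

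Among the miRNAs linked to NF-kB and immunity, miR-146a had the lowest p-value. Its ΔCt was 2.99, 4.01 and 4.27 in the controls and 0.76, -0.01 and 0.61 in the treated cells, where a lower ΔCt stands for more miRNA. Every treated sample was thus above every control. The log2 difference was 3.30 (standard error 0.48, 95% confidence interval 2.09 to 4.51), a 9.85-fold higher level, with an unadjusted p-value of 0.000772 and an adjusted p-value of 0.0980 (limma). Within the replicate numbers it was 2.23, 4.01 and 3.66. In a fit over all 15 samples of the series the adjusted p-value was 0.000916, and the alternatives ranged from this value to 0.987.

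MiR-155, the other NF-kB target of the list, showed a pattern that only the pairing separates from its spread. Its ΔCt was 7.32, 9.33 and 10.22 in the controls and 6.05, 7.96 and 8.97 in the treated cells, so the groups overlapped. Within the replicate numbers the log2 difference was 1.27, 1.37 and 1.26, which is nearly the same in each pair. The treated Ct values of miR-155 lay close below whole cycles, and what this adds to the near equality was not tested. Over the alternatives its log2 difference ranged from 0.492 to 2.115. The mean difference of 1.30 had an unadjusted p-value of 0.282 without the block and of 0.00357 with it, and the adjusted p-value of the blocked fit was 0.237. MiR-125b-5p, which is known to target Tnf and Tnfaip3 transcripts, had a ΔCt of 10.97, 10.41 and 10.97 in the controls and 9.10, 9.48 and 10.01 in the treated cells. These groups did not overlap, and the log2 difference of 1.25 (standard error 0.39) had an unadjusted p-value of 0.0220.

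The other members of this list differed by less than their spread. MiR-9, miR-147, miR-223 and miR-132 had log2 differences of 0.18, -0.19, -0.18 and -0.34, respectively, with unadjusted p-values between 0.665 and 0.752. MiR-146b, which has the seed of miR-146a, was undetermined in all 6 samples of the normalized table and was not tested. In the non-normalized table it had a Ct of 23.42 and 29.73 in treated replicates 2 and 3 and none in the other 4 samples. The other strand of its hairpin, miR-146b*, is not a member of this list. That strand had a Ct in all 6 samples and a log2 difference of 1.24, with an unadjusted p-value of 0.121 (limma). Altogether 7 of the 8 members on the cards were tested, 2 were higher and 0 lower at an unadjusted p-value under 0.05 (3.37% and 1.35% of all miRNAs tested), and their median was 0.18.

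Of the miRNAs that earlier work links to cytokines in islets, miR-203 and miR-34a were higher in every treated sample. The Ct of miR-203 was 24.94, 24.64 and 24.95 in the controls and 22.91, 22.98 and 22.76 in the treated cells, so that the groups did not overlap on the raw Ct scale either. On the ΔCt scale the controls were at 5.96, 7.09 and 7.26 and the treated cells at 4.03, 5.02 and 4.80. The log2 difference was 2.15 (standard error 0.52, 95% confidence interval 0.85 to 3.46), with an unadjusted p-value of 0.00765 and an adjusted p-value of 0.619, and 0.223 with the block. Within the replicate numbers it was 1.93, 2.07 and 2.46.

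MiR-34a, a p53 target linked to beta-cell death, had a ΔCt of 6.98, 6.86 and 7.29 in the controls and 5.73, 5.99 and 6.27 in the treated cells. The groups did not overlap, and the log2 difference of 1.05 (standard error 0.33) had an unadjusted p-value of 0.0214, with 1.26, 0.87 and 1.02 in the pairs. MiR-34c, a paralog, had a Ct between 30.95 and 35.96 and pair differences of 2.80, -4.59 and 0.90, which do not have 1 direction. For miR-34b-3p the log2 difference was -0.13.

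MiR-21, one of the best known cytokine-responsive miRNAs, had a Ct between 19.84 and 19.98 in all 6 samples. Relative to miR-26a this gave a log2 difference of 0.20 (95% confidence interval -1.21 to 1.62). The passenger strand miR-21*, which is not in this list, had a mean Ct of 30.70 in the controls and 29.51 in the treated cells. Its log2 difference was 1.39, with an unadjusted p-value of 0.0452 (limma). MiR-29a, miR-29b and miR-29c, which share the seed AGCACCA, had log2 differences of -0.21, -0.40 and -0.01. MiR-30b and miR-101a had log2 differences of -0.05 and -0.27, the latter without treated replicate 1, whose well is blank. In all, 10 members were tested, 2 were higher and 0 lower at an unadjusted p-value under 0.05 (3.37% and 1.35% of all), and the median of -0.09 was close to that of all miRNAs.

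**Figure D2:**
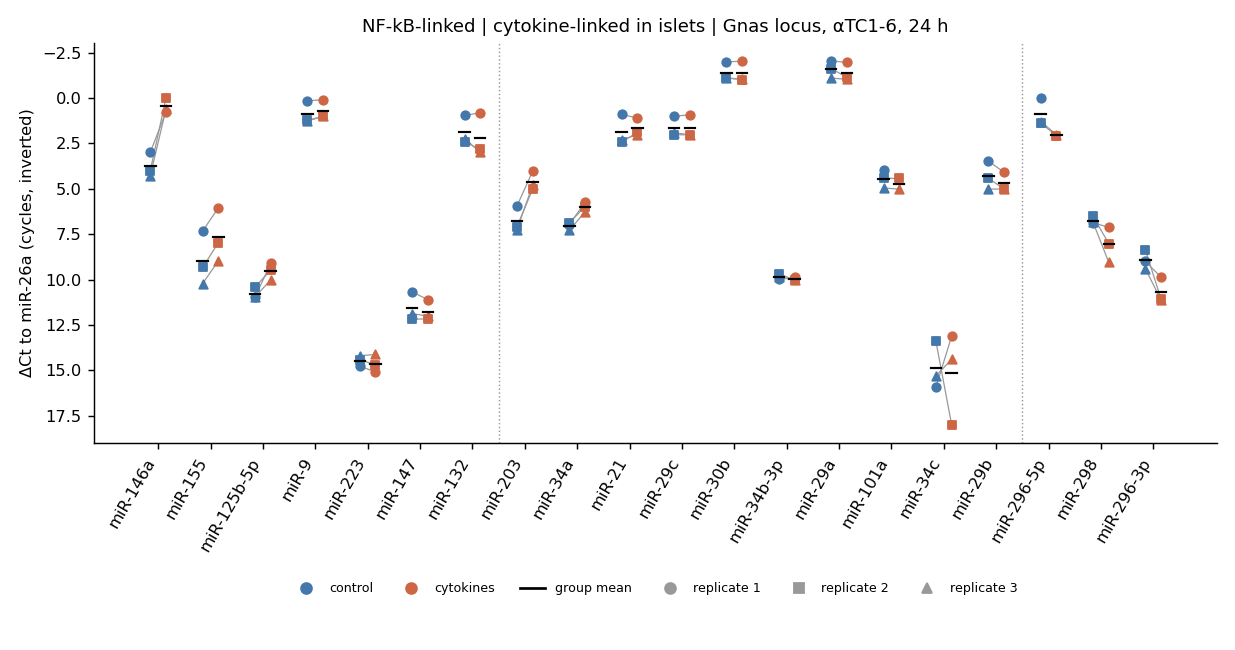
ΔCt to miR-26a in each sample (y axis, cycles, inverted so that more miRNA lies upwards) for the tested miRNAs of the NF-kB-linked, islet cytokine-linked and Gnas locus lists, with controls in blue, cytokine-treated samples in orange, lines joining the same replicate number and black bars at the group means. The treated samples of miR-146a, miR-125b-5p, miR-203 and miR-34a lie above all controls, those of miR-298 and miR-296-3p below them, and the lines of miR-155 run parallel.

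MiR-296 and miR-298 are neighbouring genes in the imprinted Gnas locus. The Ct of miR-296-3p was 27.99, 25.92 and 27.10 in the controls and 28.75, 29.05 and 29.09 in the treated cells, which had less of it without overlap. Its log2 difference of -1.77 (standard error 0.52) had an unadjusted p-value of 0.0176 and an adjusted p-value of 0.619. MiR-298 had a ΔCt of 6.88, 6.52 and 6.85 in the controls and 7.11, 8.01 and 9.05 in the treated cells. Its groups did not overlap either, but treated replicate 1 lay only 0.24 cycles from its control against 1.49 and 2.20 in the other pairs, and the log2 difference of -1.31 had an unadjusted p-value of 0.0647. MiR-296-5p, from the other arm of the miR-296 hairpin, had a Ct of 18.98, 18.92 and 18.98 in the controls and of 20.03 and 19.97 in treated replicates 2 and 3, with a blank well in replicate 1. Its log2 difference was -1.15 with an unadjusted p-value of 0.116. All 3 members were thus on the same side of 0, with 1 of them at an unadjusted p-value under 0.05 (1.35% of all were lower).

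Many miRNAs of the Dlk1-Dio3 region were lower in the treated cells at 24 h PT. The maternal allele of this region makes the non-coding RNAs Meg3, Rian and Mirg together with a large array of miRNAs, and its miRNAs are abundant in endocrine and neuronal cells. In the RefSeq gene table, 47 of the 49 miRNA numbers of the list have a gene, all 47 on chromosome 12. The cards held 74 assays for them, counting both arms and rat versions, and 61 were tested. Of these, 51 were below 0 and 10 above it, with a median of -0.60 and values from -8.13 (miR-380-3p) to 2.77 (miR-493, undetermined in 3 samples), whereas 211 of the 384 other miRNAs were below 0, with a median of -0.07. At an unadjusted p-value under 0.05, 4 were lower (1.35% of all miRNAs tested were) and 0 higher (3.37%). With the replicate block 17 were lower (6.09% of all) and 1 higher (5.42%). Of 56 members with a value in every sample, 14 had all 3 treated samples below all controls (6.39% of all) and 0 had them above (5.63%). In all 3 pairs, 37 were lower (24.3% of all) and 2 higher (14.8%). The members thus made up 14 of the 25 miRNAs without overlap in that direction, and 37 of the 95 that were lower in all pairs.

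The median level of the region was lower in the treated sample of each pair. Over the 46 members with a Ct in all 6 samples, the median ΔCt was 7.99, 8.07 and 8.28 in the controls and 8.67, 8.43 and 9.03 in the treated cells. By this median, each treated sample stood for less miRNA than any control. Of the 46 members, 13 had all treated samples below all controls (6.99% of the 329 miRNAs with a Ct in all 6 samples). A log2 difference above 0 was found for 5 members. Over the 283 other miRNAs with a Ct in all 6 samples the median ΔCt was 6.99, 7.43 and 7.92 in the controls and 7.07, 7.02 and 8.01 in the treated cells, which overlap. Within the replicate numbers, the median log2 difference of the members was -0.52, -0.39 and -0.73, and that of the others -0.05, 0.21 and -0.20. The strands that the cards list without an asterisk had a median of -0.62 over 47 assays, and the 14 passenger strands, marked with an asterisk, one of -0.30. All 14 sit on card B and 41 of the 47 on card A, so most of this contrast coincides with the card. The remaining strands without an asterisk, on card B, ranged from -3.07 (mouse miR-758, with an undetermined treated well) to 0.26 (rat miR-493). Strands were not compared within a card.

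**Figure D3:**
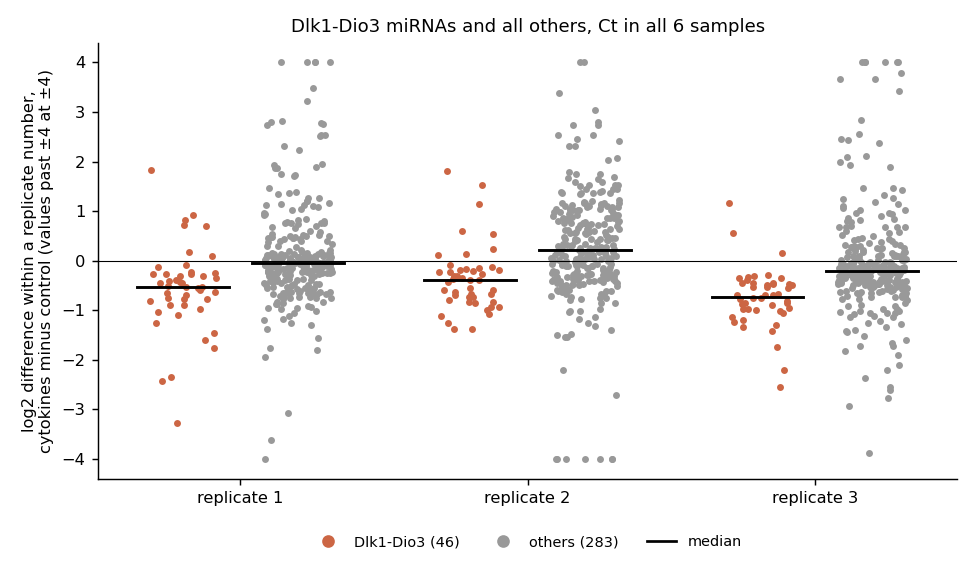
Log2 difference of cytokines minus control within each replicate number (y axis, values beyond 4 drawn at 4) for the 46 Dlk1-Dio3 miRNAs (orange) and the 283 other miRNAs (grey) with a Ct in all 6 samples, each point 1 miRNA and each bar a median. The orange medians lie at -0.52, -0.39 and -0.73, below the grey ones in every pair.

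The card on which an assay sits moved with the level of the other miRNAs. On card A, the median of the miRNAs outside the region was -0.21 over 213 tested, and on card B it was 0.24 over 171. The members had medians of -0.62 over 41 assays of card A and of -0.41 over 20 assays of card B, lower than the others of their card in both. On card A, 87.8% of the members and 72.3% of the others were below 0, and on card B 75% and 33.3%. On card B, the small nucleolar RNAs snoRNA135, snoRNA202, U87 and snoRNA429 were also 0.23 to 0.30 log2 units higher in treated cells relative to miR-26a, against 0.04 to 0.06 for the first 3 of them on card A. U6 was lower on both cards, at -0.20 and -0.36, and Y1 was at -0.27 on card A and 0.22 on card B. The part of the card in these differences was not tested. Over 3 other normalizations, the median of the region lay between -0.46 (centring on the median of each sample) and -0.80 (no normalization), against 0.09 and -0.24 for the other miRNAs. The number of members without overlap was 7 of 56 after median centring, where it was 15 of all 391 (3.84%), and 8 without normalization, where it was 28 (7.16%).

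MiR-370 had a ΔCt of 7.20, 6.88 and 6.63 in the controls and 8.10, 8.01 and 8.05 in the treated cells, a log2 difference of -1.14 (standard error 0.31, unadjusted p-value 0.0126). Rat miR-379* was at 8.30, 8.68 and 9.33 in the controls and at 10.07, 10.06 and 10.04 in the treated cells, a log2 difference of -1.28 (standard error 0.38, unadjusted p-value 0.0177). Treated values of both lay within 0.1 cycle of each other and above all controls on the ΔCt scale, which means less miRNA. The treated Ct values lay near whole cycles, at 26.974, 25.965 and 26.006 for miR-370 and 28.942, 28.017 and 27.994 for miR-379*. MiR-26a was at 18.88, 17.96 and 17.96 in these samples. What this bunching of Ct values adds to the small spread was not tested. MiR-544 (-0.81, unadjusted p-value 0.0358) and miR-134 (-1.05, unadjusted p-value 0.0587), which is known from neurons as a repressor of Limk1, also had no overlap between the groups. MiR-411*, which shares the seed of miR-379*, had a log2 difference of -1.24 with pair values of -2.36, -0.16 and -1.20 and overlapping groups. No member among these had an adjusted p-value under 0.619.

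MiR-380-3p, also of this region, was the miRNA that passed the adjusted threshold, and its value depends on the deposited table. In the normalized table its Ct was 33.09, 30.94 and 31.01 in the controls, and all 3 treated wells were undetermined. With these at a Ct of 40, it fell by 8.13 on the log2 scale (standard error 0.44, adjusted p-value 0.00120), and the adjusted p-value was 0.119 with the replicate block. The non-normalized table holds a Ct for all 6 samples, 31.04, 28.58 and 29.14 in the controls and 34.03, 31.83 and 30.94 in the treated cells. Each treated well had a later Ct than its own control. The groups overlapped on the Ct scale, though not relative to miR-26a. The log2 difference was -2.49, with an unadjusted p-value of 0.0138 and an adjusted p-value of 0.680 (limma). Between 60 and 86 wells of card A per sample were, like these, undetermined in the normalized table only, and their part in the other differences was not tested beyond the fit of the non-normalized table. Its adjusted p-value ranged from 8.16e-07 to 0.680 over the alternatives.

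MiR-292-5p was the reverse case, with no Ct in any control and a Ct of 24.94, 12.76 and 29.75 in the treated cells. This miRNA belongs to a cluster typical of embryonic stem cells. The non-normalized table gives no Ct in the controls either, and 24.94, 15.33 and 29.75 in the treated cells. The treated replicates lay far apart, and the log2 difference of 17.71 against a Ct of 40 had a standard error of 4.35 and an adjusted p-value of 0.534 (limma). At 48 h PT the only Ct of miR-292-5p in the normalized table was 17.16, in control replicate 1. That well was undetermined in the non-normalized table, and all treated wells at 48 h were undetermined in both. At 24 h, miR-380-3p and miR-292-5p were the 2 miRNAs with a Ct in all samples of a group and in none of the other. In the non-normalized table there were 4, namely miR-291b-5p, miR-469 and miR-292-5p in treated cells and miR-19a* in controls.

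**Figure D4:**
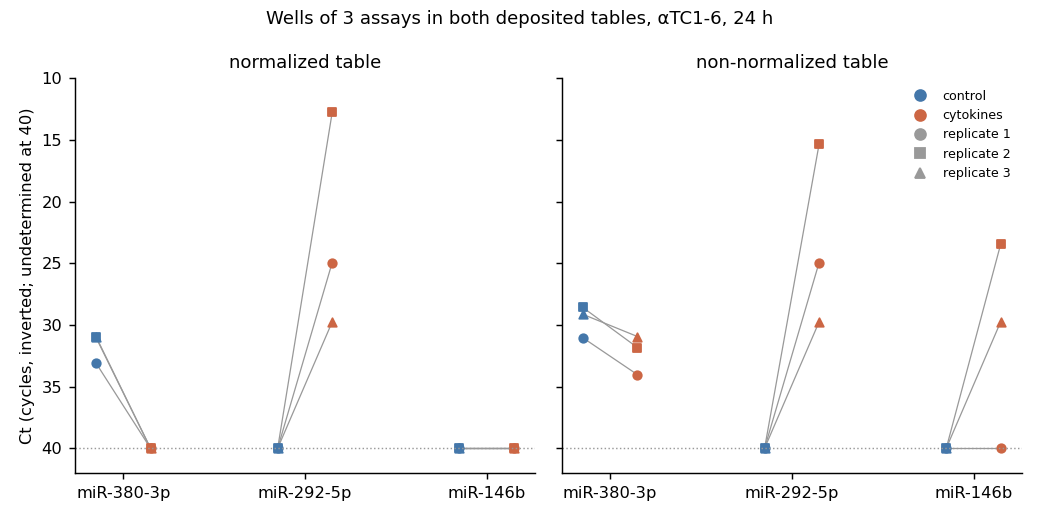
Ct of miR-380-3p, miR-292-5p and miR-146b in each sample (y axis, cycles, inverted, undetermined wells at 40) in the normalized and the non-normalized table, with controls in blue, treated samples in orange and lines joining the same replicate number. The treated wells of miR-380-3p are undetermined in the first table and lie between 30.94 and 34.03 in the second.

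The remaining miRNAs chosen for low p-values were of diverse origin. Among those higher in treated cells, miR-466c-5p of the Sfmbt2 cluster had a Ct of 28.20, 24.75 and 25.41 in the controls and 22.26, 21.77 and 23.69 in the treated cells. Its log2 difference was 3.74 (standard error 0.86, unadjusted p-value 0.00631). For mmu-miR-466c-5p the non-normalized table gave 9.60 (unadjusted p-value 0.0623), and the first of the duplicate wells gave 9.60 as well (unadjusted p-value 0.0573). The Sfmbt2 list had a median of 0.01 over 18 tested assays, with 9 above and 9 below 0. Rat miR-29b-1* (3.30), miR-383 (1.82) and miR-197 (1.17) had unadjusted p-values between 0.0114 and 0.0167 and no overlap between the groups. The Ct of rat miR-29b-1* lay between 35.60 and 37.22 in the controls, close to the limit of the assay. Among those lower in treated cells, miR-107 (-0.95) and rat let-7e* (-1.58) had unadjusted p-values of 0.0576 and 0.0633.

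The islet miRNAs differed by less than the spread between samples. MiR-375, the most abundant islet miRNA and a brake on insulin secretion, had the lowest mean Ct of its list and a ΔCt of -4.04, -2.65 and -2.83 in the controls and -3.88, -1.98 and -1.98 in the treated cells, where the ranges overlapped. Its log2 difference of -0.56 (95% confidence interval -2.37 to 1.25) was negative in all 3 pairs, at -0.16, -0.66 and -0.85, and ranged from -1.19 to -0.13 on leaving out 1 sample. MiR-7a and miR-7b, which have the same seed, had log2 differences of -0.56 and 0.32, each with 1 blank well left out. Of 12 tested islet and neuroendocrine miRNAs, 9 were below 0 and 0 passed an unadjusted p-value of 0.05 (limma). Their median was -0.18, with values from -4.43 (miR-204, 1 treated well undetermined) to 0.46 (miR-184). Most of them sit on card A, where 72.3% of the tested miRNAs outside the Dlk1-Dio3 list were below 0. MiR-182, miR-183 and miR-96 were present in all 6 samples with log2 differences between -0.21 and -0.12. The tested islet and neuroendocrine miRNAs thus had a Ct in both groups. MiR-211, the remaining member of the 13 on the cards, had no Ct in any of the 6 samples.

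Several markers of other cells had no Ct, others had a Ct in all 6 samples, and none of those tested separated the groups. MiR-126-3p had a mean Ct of 25.11 in the controls and 25.62 in the treated cells, and miR-150 of 27.53 and 27.83. Not tested were miR-143, with a Ct in 2 treated samples only, and miR-208, with a Ct in 2 controls only. The exocrine miRNAs miR-216a, miR-216b and miR-217 and the liver miRNA miR-122 had no Ct in any of the 6 samples. Of 5 blood miRNAs, 4 were tested, and none of them passed an unadjusted p-value of 0.05 (limma). MiR-142-3p, the highest of them in log2 difference at 1.08, had a Ct of 32.98, 32.98 and 33.96 in the controls and 31.66, 33.47 and 32.12 in the treated cells, and its groups overlapped. MiR-451 had a Ct in 4 of the 6 samples. The endothelial and mesenchymal list had 4 tested members, from -0.32 (miR-126-3p) to 0.59 (miR-145), and the muscle list had 2, miR-206 (-0.18) and miR-133a (0.48).

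The other families were described by their counts. All 9 let-7 miRNAs were tested, and 8 were below 0, from -0.58 (let-7f) to 0.10 (let-7i), with a median of -0.21. They sit on card A, where 72.3% of the tested miRNAs outside the Dlk1-Dio3 list were below 0, also with a median of -0.21. Of the miR-17-92 family and its paralogs, 10 of 13 were tested, from -3.03 (miR-363) to 4.02 (miR-20a), both extremes with undetermined wells, and the median was -0.21. The miR-200 family had 2 tested members, miR-200c (0.04) and miR-141 (2.20), and the other 3 had no Ct. Passenger strands of these hairpins are not in that list and did have a Ct. MiR-200c* was at 3.20 (unadjusted p-value 0.0367, limma), miR-200a* at 3.70 (0.374), miR-141* at 0.84 (0.0687) and miR-200b*, with undetermined wells, at -3.11 (0.733). Of 119 tested passenger strands, all on card B, 69 were above 0, with a median of 0.14, where all tested miRNAs of card B had a median of 0.20. None of these miRNAs had an adjusted p-value under 0.05, and at an unadjusted p-value under 0.05, 4 passenger strands were higher and 2 lower, near the shares over all miRNAs of 3.37% and 1.35%. Of the miRNAs that a supplementary list of the study holds, miR-700 (-0.75, unadjusted p-value 0.0834) had no overlap between the groups, and miR-149 (-0.63), miR-191* (-0.87), miR-142-3p and miR-190 (-0.73, without replicate 1 of both groups) overlapped or had a blank well. With the block, the unadjusted p-value of miR-191* was 0.0320.

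The 24 h values were set beside those at 48 h PT, which come from other samples with controls of their own. The log2 difference at 24 h and at 48 h was 3.30 and 3.82 for miR-146a, 2.15 and 2.54 for miR-203, 1.30 and 1.18 for miR-155, 1.05 and 1.13 for miR-34a and 1.25 and 1.43 for miR-125b-5p. The test of the difference between the time points gave unadjusted p-values between 0.346 and 0.930 for these 5 miRNAs. For miR-298 the values were -1.31 and -3.19, with an unadjusted p-value of 0.0265 and an adjusted one of 0.992 for their difference, and for miR-296-3p they were -1.77 and -2.46. The Dlk1-Dio3 list had a median of -0.60 at 24 h and of -0.85 at 48 h, where 56 of the same 61 assays were below 0, but the other miRNAs had a median of -0.51 at 48 h as well. Of 477 miRNAs tested for a difference between the time points, 1 (0.21%) had an adjusted p-value under 0.05, and this was miR-380-3p.

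The precision of single Ct values has a limit that shows in the tables. On card A, 741 of 1494 wells with a Ct in the 6 samples (49.6%) had a Ct whose first decimal was 9, as in 19.98 or 22.97, where an even spread over the cycle would put 10% of them. On card B the share was 29.5% of 1913 wells. Per sample it lay between 37.9% and 59.6% on card A, and the mean was 44.7% ± 6.99 in the controls and 55.0% ± 5.15 in the treated cells (SD, n = 3, exact permutation test, two-sided, p = 0.2). Ct values close below a whole cycle recur in the miRNAs described above, for example all 3 treated wells of miR-29b, at 22.96, 22.97 and 22.97. Duplicate wells of card B, both with a Ct, differed by a median of 0.280 cycles over 671 pairs, by 0.210 cycles at a mean Ct under 30 and by 0.767 cycles above it, and the 90th percentile was 2.07 cycles. In another 99 pairs 1 well was undetermined while the other had a Ct, of 27.8 at the median.

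**Figure D5:**
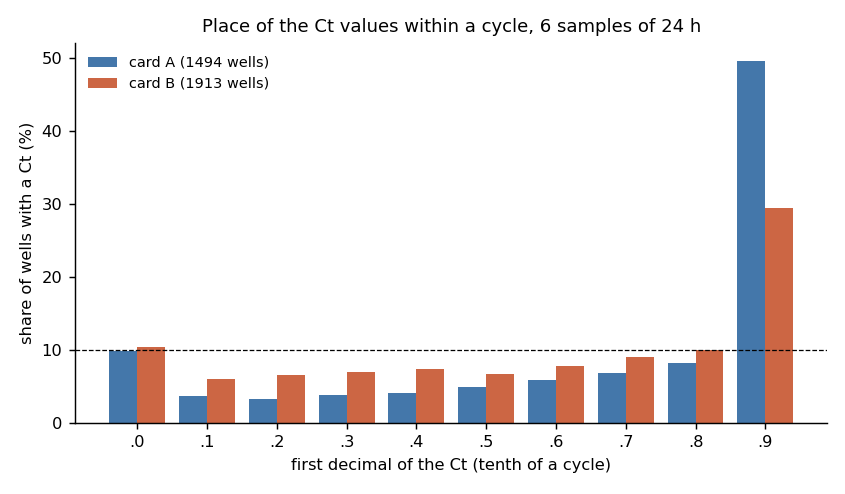
Share of the wells with a Ct (y axis, percent) by the first decimal of the Ct (x axis) for card A (blue, 1494 wells) and card B (orange, 1913 wells) of the 6 samples, with a dashed line at the 10% that an even spread gives. Decimal 9 holds 49.6% of the wells of card A and 29.5% of those of card B.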

How the data were processed

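Total RNA of αTC1-6 was reverse transcribed, preamplified and run by the authors on TaqMan Rodent cards A and B. The non-normalized table, as deposited, holds Ct values. The normalized table, as deposited by the authors, holds ΔCt to miR-26a on a log2 scale and relative quantities, the ratio to miR-26a. The table of fold changes holds the authors' own comparisons and was not used. Of the columns with values, 0 belonged to no sample.

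Each sample's miR-26a Ct was added back to give Ct, and blank wells were left out. Duplicate wells were averaged over those with a Ct, and an undetermined assay was set to 40. Assays with a Ct in at least 3 of 6 samples were fitted with limma 3.58.1 in R 4.3.3 (lmFit, eBayes, two-sided) on the negative ΔCt, with Benjamini-Hochberg adjustment by card and a threshold of 0.05. The difference between time points was fitted over the 12 αTC1-6 samples. Python 3.11.15 (pandas 2.3.3, numpy 2.4.6, matplotlib 3.10.9) made tables and figures. Replicate numbers were taken as pairs: over the 329 miRNAs with a Ct in all 6 samples, same-numbered deviations from the group means correlated at 0.27, 0.45 and 0.45.

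The miRNA lists, the rule for named miRNAs and the settings were chosen with earlier results of these data known. Named were miRNAs past the adjusted threshold, the 8 lowest p-values per direction with a Ct in all 6 samples, those with a Ct in 1 group only, the NF-kB, islet cytokine and Gnas lists, miR-375 and miR-7, and 6 miRNAs of a supplementary list. Other lists are given by counts and extremes. Names are those of the cards, and 35 of 42 names looked up had a RefSeq sequence. Alternatives were another reference, filter, limit, table, block or prior, and each sample left out. Averaging in undetermined duplicates, leaving out wells with a Ct under 12 and all alternatives for the Dlk1-Dio3 list were chosen after seeing the data. On simulated data of 391 miRNAs with 3 against 3 samples, 10.4% of those changed by a log2 of 1 were called, 44.8% at 2 and 77.4% at 4, and 0.838% of unchanged ones. Each simulated draw changed more miRNAs than it left unchanged and gave every well a Ct. Adjustment is milder where many miRNAs change, so these shares need not hold for the real data.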

Additional observations from a re-analysis of the deposited data

Results flagged for a closer look

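MiR-380-3p responded differently at 24 h and 48 h, by 7.81 log2 units (48 h minus 24 h, standard error 0.70, adjusted p-value 0.000297 for the difference itself, limma over 12 samples). At 48 h its Ct lay between 30.96 and 32.33 in the controls and between 31.88 and 32.12 in the treated cells, a log2 difference of -0.32, whereas all 3 treated wells at 24 h are undetermined in the normalized table. It did not pass this test with a Ct required in every sample, with Ct values limited to 35 or with undetermined wells missing. Refitted on the non-normalized table, no miRNA passed (0 after limma adjustment). Per sample 60 to 86 wells of card A at 24 h but 0 to 1 at 48 h were undetermined in the normalized table alone.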

How the results depend on the processing

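Of 41 named and tested miRNAs, 28 kept their direction under every alternative, and 26 of these also stayed on the same side of the adjusted threshold, though sizes moved (miR-466c-5p up to 9.60). The 1 miRNA at an adjusted p-value under 0.05, miR-380-3p, depends on undetermined wells at 40. No miRNA passed (0) when a Ct in every sample was required, with Ct values above 35 set to 35 (mmu-miR-380-3p -3.13, adjusted p-value 0.0777, limma), in the non-normalized table (25 at an unadjusted p-value under 0.05), or with limma's prior variance trended on the mean. With undetermined wells missing, miR-380-3p had no treated value and miR-200b* passed alone, at -23.04. With all samples of the series in 1 fit, 2 passed (miR-146a added), and with early Ct values left out also 2 (miR-200b* added, in the opposite direction at 6.40). Leaving out 1 sample gave 0 to 2. The number was 0 without control replicate 2 or 3, where miR-380-3p has a Ct in only 2 samples and was not tested, and rat miR-25*, miR-200b*, rat miR-219-1-3p and miR-539 passed on leaving out other samples. With the replicate block, 0 passed after adjustment and 51 before it, against 21 without pairing, and the time comparison kept 1.

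The median of all miRNAs was 0.07 without control replicate 1 and 0.17 without cytokines replicate 3, and ranged from -0.30 to 0.17 on leaving out 1 sample. The Dlk1-Dio3 median was -0.80 without normalization. After median centring, 15 miRNAs in all had treated samples below all controls. A Ct in 1 group only was found for 4 miRNAs of the non-normalized table, where the treated cells had 6 more miRNAs with a Ct on card A and a difference of -3.67 on card B, both opposite in sign to the normalized table. The time comparison passed 3 miRNAs after median centring, 2 without normalization, 3 without a filter, 2 with undetermined wells missing, 0 in the non-normalized table, 2 with the prior that follows the mean, and 1 to 4 on leaving out 1 sample. MiR-380-3p was not among them with undetermined wells missing, where miR-200b* and miR-200c* passed, and the 1 miRNA passing with a Ct in every sample or with the limit of 35 was miR-200c*.

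Small differences changed sign. After median centring miR-101a was at 0.13, miR-34b-3p at 0.014, miR-30b at 0.10 and miR-29c at 0.13. Without normalization miR-9 was at -0.013 and miR-7b at -0.32. MiR-7b was at -0.10 in the non-normalized table, and miR-34c at 0.023 with the limit of 35. On leaving out 1 sample, log2 differences ranged from -0.44 to 0.043 for miR-223, from -1.04 to 0.11 for miR-132, from -0.13 to 0.54 for miR-9, from -0.51 to 0.27 for miR-147, from -0.76 to 0.014 for miR-29b, from -0.57 to 0.022 for miR-101a, from -0.50 to 0.022 for miR-29a, from -0.082 to 0.69 for miR-21, from -1.32 to 1.12 for miR-34c, from -0.38 to 0.25 for miR-30b and from -0.38 to 0.31 for miR-29c. The causes were not tested.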

Other observations

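The plant assay ath-miR159a, a negative control, was undetermined in all 6 samples on card A. On card B it had a Ct of 4.57, 22.99 and 30.84 in the controls and of 27.73 and 19.54 in treated replicates 1 and 2, and was undetermined in treated replicate 3. Each of the 6 samples also had between 4 and 13 wells with a Ct under 12. Rat miR-25*, the miRNA with the lowest log2 difference (-18.70), had a Ct of 13.73, 25.37 and 22.21 in the controls and 40, 38.00 and 40 in the treated cells, and miR-200b* had a Ct of 11.47 in control replicate 1 alone of its group against 34.22, 33.29 and 33.86 in the treated cells. Both were named after their values were seen.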
